A study of Mus musculus with 9 samples.

Results

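A set of 31 genes for making cholesterol and fatty acids was followed in sorted inner ear hair cells (HCs) of mice that carry the diminuendo allele (Dmdo) of *Mir96*. The genes were fixed by symbol: 7 of the mevalonate arm of cholesterol synthesis, 11 of the path from squalene to cholesterol, 5 regulators of the sterol regulatory element binding proteins (SREBPs), 7 of fatty acid synthesis and desaturation, and the sterol transfer gene *Stard3*. They are 31 of the 43808 genes counted in each library. All 31 passed the read minimum (2 or more mice of 1 genotype with 20 reads each), which left 15184 genes for testing. *Mir96* gives rise to miR-96, which is made in sensory cells, and the question put to these data was which transcripts differ in HCs when the seed of this microRNA is changed.

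RNA was sequenced from 3 homozygous mutant (Hom), 3 heterozygous (Het) and 3 wild-type (WT) mice at postnatal day (P) 1, with 1 library per mouse and with cochlear and vestibular HCs pooled. Hom mice have 2 Dmdo alleles, Het mice 1 and WT mice 0, and mice of each genotype carried *Atoh1/nGFP*, a transgene that puts green fluorescent protein under *Atoh1* control. Cells positive for this reporter and for the epithelial surface protein CD326 were sorted, so the samples hold what that gate lets through. The Dmdo mice were of C3HeB/FeJ and the reporter mice of C57BL6 origin, and no source used here gives the background of each animal.

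Cells make cholesterol from acetyl-CoA, first through mevalonate to farnesyl diphosphate and then through squalene and lanosterol. Fatty acids are built by carboxylation and chain synthesis and then lengthened and desaturated. Both routes are switched by the SREBPs, transcription factors that are held in the endoplasmic reticulum by SCAP and the INSIG proteins while sterol is plentiful and are released for cleavage when it is scarce. SREBP2, from *Srebf2*, mainly drives cholesterol genes, and SREBP1, from *Srebf1*, mainly fatty acid genes.

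Library totals ran from 18175317 to 34873964 reads. Of the 8 HC markers listed, all passed the minimum, and their summed CPM (the read count scaled by the library total) was 8088 to 9403 in Hom, 9434 to 12581 in Het and 9334 to 13595 in WT libraries. The 6 red blood cell markers were at 0 in every library and the 4 endothelial markers summed to at most 4.53 CPM. Mesenchyme markers summed to 899 CPM in Hom 46 and to 129 to 257 CPM in the 8 other libraries, and the myelin gene *Pmp22* was at 5.67 and 37.8 CPM in Hom 46 and Hom 47, against at most 0.0894 CPM elsewhere. Reads of *Xist* outnumbered those of the Y-linked *Ddx3y* in WT 44, WT 59 and Het 48 and were fewer in the other 6 libraries, the 3 Hom libraries among them. Fewer cells of a type and less RNA per cell cannot be told apart in such bulk samples.

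In Hom HCs *Srebf2* and the fatty acid desaturase gene *Fads2* were lower than in WT HCs, and edgeR called no enzyme of cholesterol synthesis. Across the 31 genes, edgeR's quasi-likelihood test called these 2 lower and 0 higher. A call needed a fold change over 1.5 and an adjusted p under 0.1. Over all 15184 genes, 0.915% were called lower and 0.237% higher. At an unadjusted p under 0.05, 5 of the 31 were lower and 1 was higher, against 8.19% lower and 4.92% higher over all genes. The CPM ranges of the 3 Hom and 3 WT libraries did not overlap for 6 of the 31, with 5 below (all genes, 7.72%) and 1 above (all genes, 9.15%). The median log2 fold change of the 31 was -0.11 beside -0.02 for all genes tested, with 14 values above 0 and 17 below. DESeq2 called 5 of the 31 lower (all genes, 4.02%), *Srebf2*, *Srebf1*, *Scap*, *Fads2* and *Hsd17b7*, and 1 higher (all genes, 2.34%), *Insig2*. limma-voom called *Srebf2*, *Srebf1* and *Fads2* lower (all genes, 1.4%) and 0 higher.

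**Figure D1:**
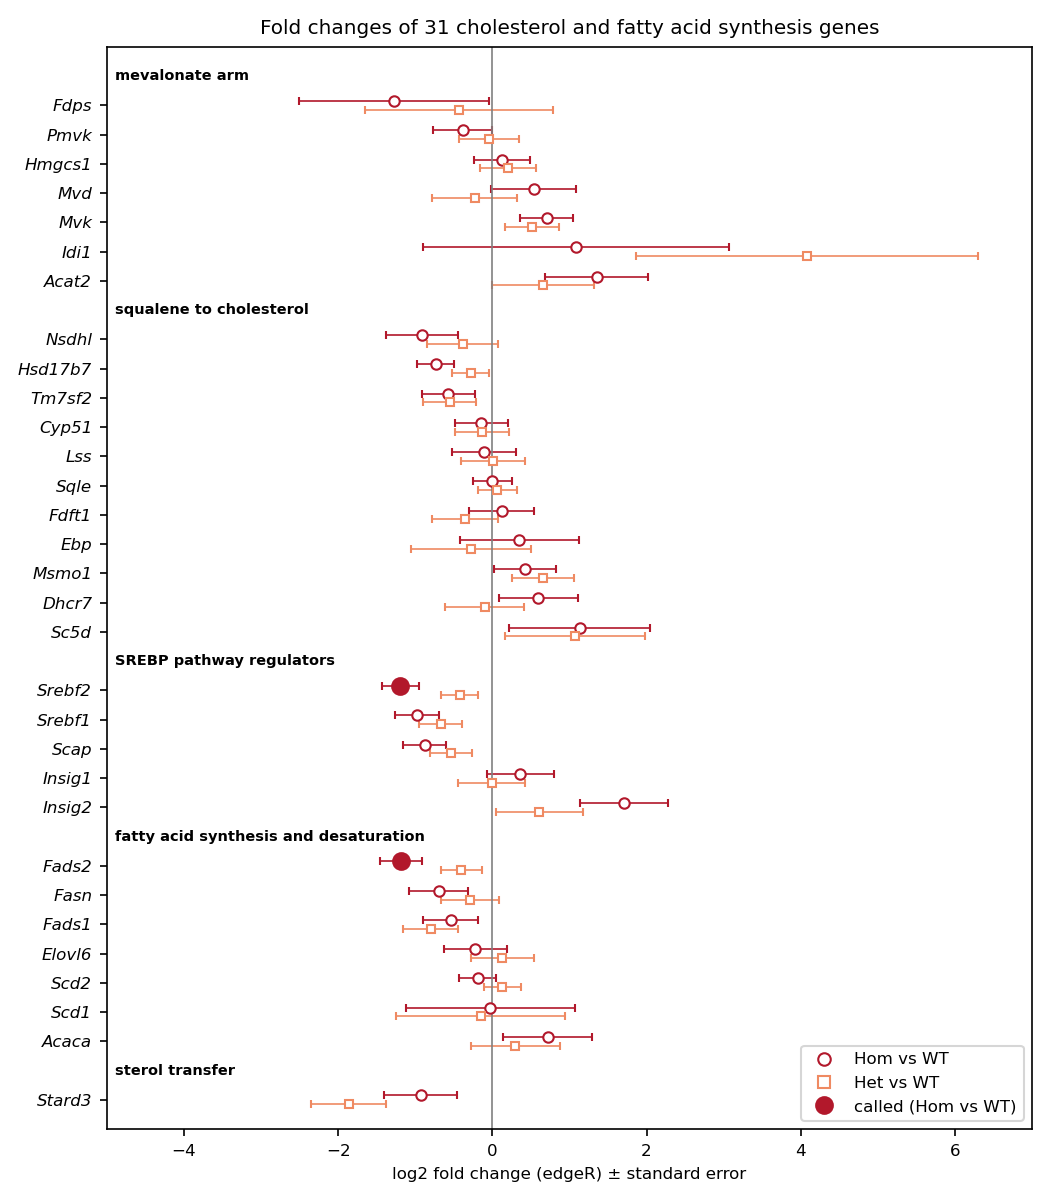
Log2 fold changes (x axis) with standard errors for each of the 31 genes, grouped by role, for Hom against WT (circles) and Het against WT (squares), 3 mice per genotype and edgeR. The filled circles are the 2 genes called in Hom HCs, *Srebf2* at -1.19 and *Fads2* at -1.18, and the enzymes of cholesterol synthesis lie on both sides of 0.

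*Srebf2* lies on chromosome 15 of GRCm38 from 82147181 to 82205379, plus strand. Its level was 219, 238 and 229 CPM in Hom 43, 46 and 47, against 358, 449.8 and 365 CPM in Het 45, 48 and 51 and 405, 575 and 499 CPM in WT 44, 55 and 59. Every Hom library was below every Het and every WT library, while the Het and WT ranges overlapped. *Srebf2* fell in Hom HCs, where its log2 fold change against WT was -1.19 (standard error 0.24, edgeR adjusted p = 0.0278). The Hom against Het difference was -0.77 (standard error 0.24, edgeR adjusted p = 0.698), which DESeq2 (adjusted p = 0.0951) and limma-voom (adjusted p = 0.0907) called. Against WT, Het HCs differed by -0.42 (standard error 0.24, edgeR adjusted p = 1).

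*Srebf1*, on chromosome 11 from 60199089 to 60222581, measured 149, 193 and 152 CPM in Hom, 154, 235 and 227 CPM in Het and 209, 320.3 and 386 CPM in WT libraries. All Hom values were below the lowest WT value, WT 44. The log2 fold change was -0.98 between Hom and WT (standard error 0.28, edgeR adjusted p = 0.129), which did not pass in edgeR but was called lower by DESeq2 (adjusted p = 0.0426) and limma-voom (adjusted p = 0.0685). It was also called in edgeR without WT 44 (log2 fold change -1.19, adjusted p = 0.0185). Between Het and WT it was -0.67 (standard error 0.28, edgeR adjusted p = 1). In a fit across the number of Dmdo alleles, with no fold threshold, edgeR called 3 of the 31 genes lower and 0 higher, against 1.34% lower and 0.435% higher over all genes. The log2 change per allele was -0.60 for *Srebf2* (standard error 0.12, edgeR adjusted p = 0.0187), -0.59 for *Fads2* (standard error 0.13, edgeR adjusted p = 0.0435) and -0.49 for *Srebf1* (standard error 0.13, edgeR adjusted p = 0.0862). Some exons of *Srebf1* and of the opposite-strand gene *Rai1* overlap, and no source used here says whether reads were counted by strand, so the reads of that stretch could belong to either.

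SCAP escorts the SREBPs to the Golgi for cleavage. *Scap* stood at 122, 92.8 and 129 CPM in Hom, 108, 162 and 167 CPM in Het and 188, 199.5 and 207 CPM in WT libraries. Both the Hom and the Het libraries were below all 3 WT libraries. Its log2 fold change was -0.88 in Hom (standard error 0.28, edgeR adjusted p = 0.174) and -0.53 in Het HCs (standard error 0.27, edgeR adjusted p = 1). DESeq2 called the Hom difference (adjusted p = 0.0493) and limma-voom did not (adjusted p = 0.159).

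The INSIG proteins retain SCAP in the endoplasmic reticulum. *Insig2*, on chromosome 1 from 121304353 to 121332589, had 71.2, 50.3 and 63.4 CPM in Hom, 39.6, 23.0 and 24.3 CPM in Het and 27.4, 23.0 and 3.61 CPM in WT libraries. Each Hom value exceeded every Het and WT value, and it was the only member of the 31 above the WT range. The log2 fold change was 1.71 (standard error 0.57, edgeR adjusted p = 0.207) and did not pass in edgeR or in limma-voom (adjusted p = 0.173). DESeq2 called it higher (adjusted p = 0.0779). Without WT 59, its lowest library, the edgeR log2 fold change was 1.23 (adjusted p = 0.356), and without WT 44 it was 2.15 and called (adjusted p = 0.0809). *Insig1*, itself a well known SREBP target, measured 40.8, 55.2 and 53.2 CPM in Hom, 45.4, 31.3 and 39.6 CPM in Het and 56.6, 26.7 and 26.9 CPM in WT libraries. WT 44 was the highest of the 9 for *Insig1*, and the log2 fold change was 0.36 (95% interval -0.54 to 1.27).

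**Figure D2:**
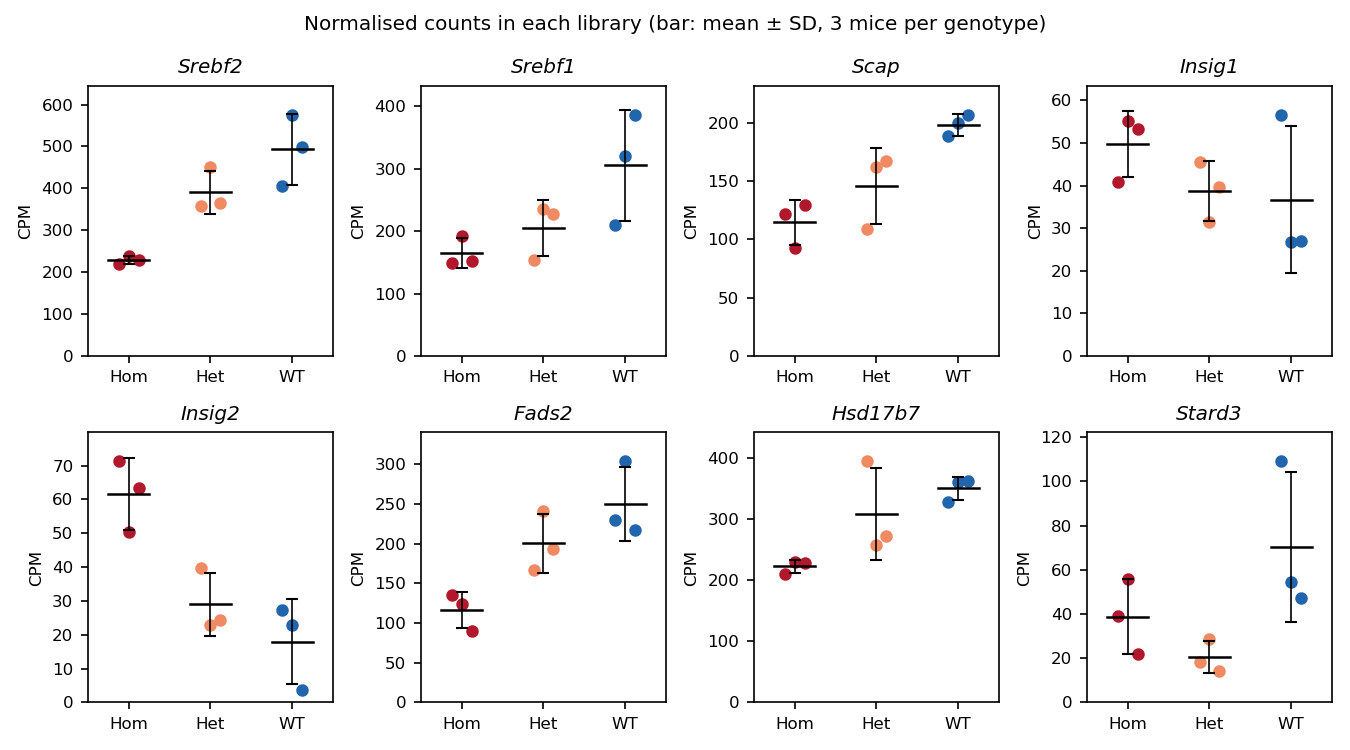
CPM (y axis, from 0) in each library for the 5 SREBP regulators, *Fads2*, *Hsd17b7* and *Stard3*, by genotype, with the mean and SD of 3 mice. The 3 Hom points of *Srebf2*, 219 to 238 CPM, lie under all 6 others, and those of *Insig2* lie over all 6 others.

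Summed over the 5 regulators, the level was 602, 629 and 627 CPM in Hom, 705, 901 and 824 CPM in Het and 887, 1145 and 1122 CPM in WT libraries. The Hom sums lay below all others. The list was chosen with results of these data known, so the sum is a description. Of the 8 HC markers, 6 had a log2 fold change below 0 in Hom HCs. edgeR called 1 lower (all genes, 0.915%), *Espn*, which encodes an actin bundler of stereocilia (log2 fold change -1.19, edgeR adjusted p = 0.0236, standard error 0.23). At an unadjusted p under 0.05, 4 were lower and 1 higher (all genes, 8.19% lower and 4.92% higher). DESeq2 called *Myo7a*, *Gfi1*, *Espn* and *Otof* lower and *Pvalb* higher (all genes, 4.02% lower and 2.34% higher). With limma-voom the same genes except *Gfi1* were called (of 15184 genes, 212 lower and 126 higher). None of the 8 was at 0. The 7 supporting cell markers summed to 879 to 947 CPM in Hom, 868 to 1305 CPM in Het and 852 to 1514 CPM in WT libraries. Of these 7, 6 were below 0 in Hom against WT HCs, with a median log2 fold change of -0.59 beside -0.40 for the HC markers, edgeR called 0 and 1 was lower at an unadjusted p under 0.05. The part of either marker list in the *Srebf2* and *Srebf1* values was not tested. With a term for *Xist* above *Ddx3y* in the fit, the log2 fold change of *Srebf2* was -1.17 (edgeR adjusted p = 0.315) and no member was called. Within the 4 Hom and WT libraries with more *Ddx3y* than *Xist*, the 3 Hom values of 219 to 238 CPM stand against 575 CPM in WT 55 alone.

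The 18 enzymes of cholesterol synthesis gave no call in edgeR. Between Hom and WT HCs 11 had a log2 fold change above 0 and 7 below, with a median of 0.13, and the ranges of 17 of the 18 overlapped. edgeR called 0 of the 18, with 1 lower at an unadjusted p under 0.05 (all genes, 8.19%). DESeq2 called 1 lower, *Hsd17b7* (all genes, 4.02%), and limma-voom 0.

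In the mevalonate arm 5 of 7 genes had positive log2 fold changes in Hom against WT HCs, with a median of 0.54. *Acat2*, which joins acetyl-CoA units, had 35.15, 78.1 and 62.7 CPM in Hom, 41.7, 34.4 and 34.1 CPM in Het and 41.5, 22.7 and 2.08 CPM in WT libraries. WT 59 was far below the other libraries, and WT 44 was above Hom 43. The log2 fold change was 1.35 (standard error 0.67, edgeR adjusted p = 0.397). It was 2.19 without WT 44, 0.82 without WT 59 and 0.56 without WT 59 and Hom 46 together, and was called in none of these fits. *Mvk*, mevalonate kinase, stood at 113, 95.6 and 63.8 CPM in Hom, 86.6, 75.8 and 78.5 CPM in Het and 71.3, 43.8 and 43.3 CPM in WT libraries. Only Hom 47 fell within the WT range, and the log2 fold change was 0.70 (95% interval -0.02 to 1.43, edgeR adjusted p = 0.39).

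*Hmgcs1*, the enzyme that forms HMG-CoA, was at 79.9, 43.5 and 107 CPM in Hom against 58.2, 78.3 and 61.6 CPM in WT libraries, a log2 fold change of 0.13 (95% interval -0.62 to 0.88). *Mvd*, mevalonate diphosphate decarboxylase (log2 fold change 0.54), and *Pmvk*, phosphomevalonate kinase (-0.38), did not pass either. The last enzymes of the arm had low CPM, and both have exons that overlap another gene, for *Idi1* the opposite-strand *Gm48574*, so these levels are uncertain. *Idi1*, which isomerizes the isoprene unit, had 2.77, 0.0550 and 0.129 CPM in Hom, 10.9, 3.80 and 8.98 CPM in Het and 0.268, 0.878 and 0.152 CPM in WT libraries. All 3 Het values were above the 6 others, at a log2 fold change of 4.08 against WT (standard error 2.21, edgeR adjusted p = 1). *Fdps*, farnesyl diphosphate synthase, was at 0.792, 13.2 and 1.26 CPM in Hom and at 10.8 to 13.1 CPM in WT libraries, and its exons overlap those of *Gm43738* on the same strand, so its count is uncertain. The arm summed to 367, 334 and 310 CPM in Hom and 310, 236 and 211 CPM in WT libraries.

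Among the 11 genes from squalene to cholesterol the median log2 fold change between Hom and WT HCs was 0.00. *Sqle*, squalene epoxidase and a rate-limiting step, had 181, 176 and 140.1 CPM in Hom, 205, 147 and 172 CPM in Het and 161, 155 and 153 CPM in WT libraries. Its log2 fold change of 0.00 had a 95% interval of -0.53 to 0.54. *Hsd17b7*, a sterol 3-keto reductase and the most abundant enzyme of this path per kilobase of exon, had 211, 229 and 228 CPM in Hom, 394, 258 and 272 CPM in Het and 328, 360.2 and 362 CPM in WT libraries. The 3 Hom values lay close together and under the 6 others. Its log2 fold change was -0.74 (standard error 0.24, edgeR adjusted p = 0.196), which DESeq2 called.

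The 9 other genes of the path had ranges that overlapped between Hom and WT HCs. The log2 fold changes were 0.12 for *Fdft1* (squalene synthase), -0.11 for *Lss* (lanosterol synthase), -0.14 for *Cyp51* (lanosterol demethylase), -0.57 for *Tm7sf2* (a sterol reductase), 0.43 for *Msmo1* (a methyl sterol oxidase), 0.35 for *Ebp* (a sterol isomerase), 1.13 for *Sc5d* (a sterol desaturase) and 0.60 for *Dhcr7* (the last reductase of one branch). *Nsdhl*, the decarboxylating dehydrogenase, had the lowest at -0.91 (standard error 0.46, edgeR adjusted p = 0.406). *Nsdhl* and *Ebp* are on the X chromosome, and all 3 Hom libraries but only WT 55 of the WT libraries had more *Ddx3y* than *Xist* reads. *Sc5d* was low throughout, at 9.39 to 19.9 CPM in Hom and 3.76 to 10.98 CPM in WT libraries. Exons of *Tm7sf2* overlap *Vps51* on the same strand, and those of *Cyp51* and *Fdft1* overlap *Akap9* and *Ctsb* on the opposite strand, which makes those counts uncertain.

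**Figure D3:**
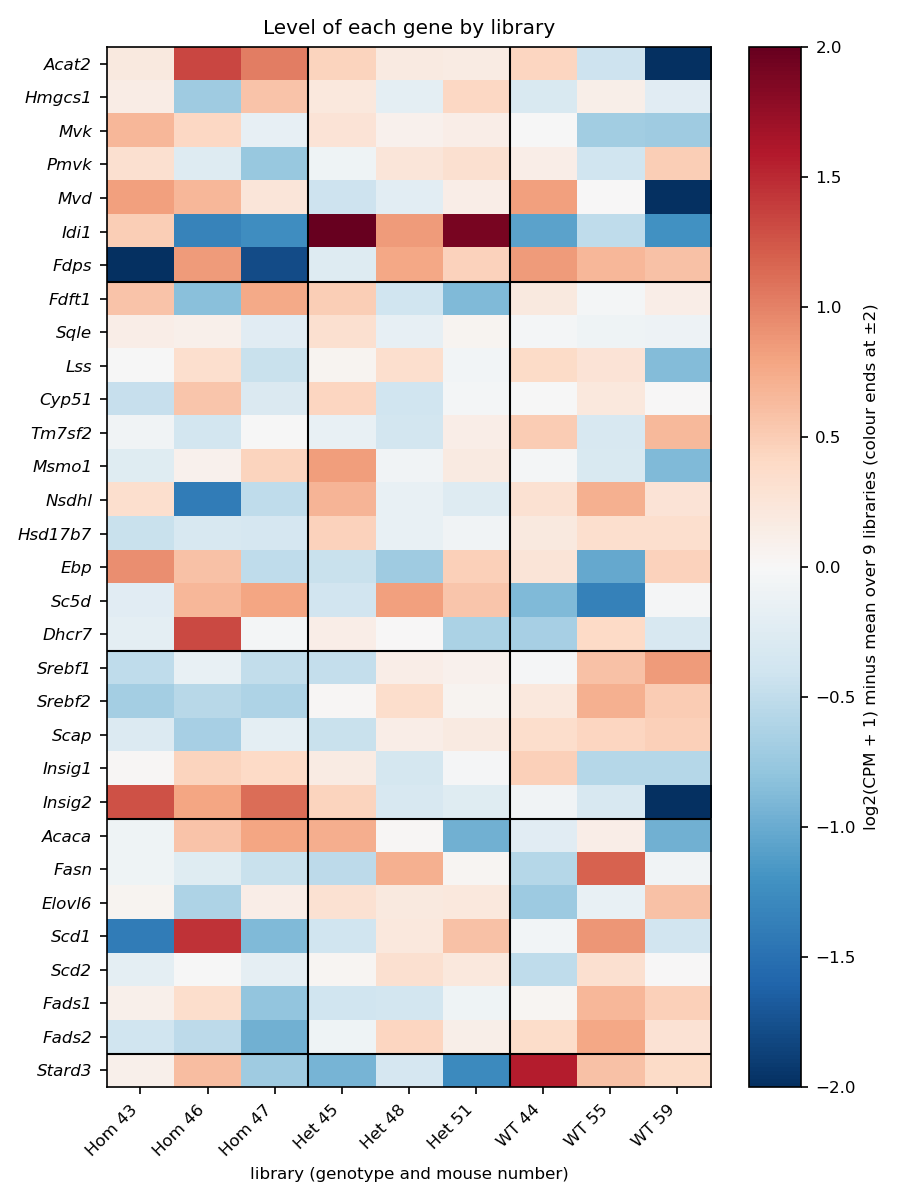
Level of each of the 31 genes in each library, as log2(CPM + 1) minus its mean over the 9 libraries (colour, ends at 2 and -2), with libraries ordered Hom, Het, WT and genes by role. *Srebf1*, *Srebf2* and *Scap* are blue in the 3 Hom columns, and *Insig2* is red there. *Acat2*, *Mvd*, *Idi1*, *Fdps* and also *Insig2*, in WT 59, reach the ends of the scale in single libraries.

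On the fatty acid side 1 of the 7 genes was called, *Fads2*, and the 3 other desaturases (*Fads1*, *Scd1* and *Scd2*) had overlapping Hom and WT ranges. *Fads2*, the delta-6 desaturase of polyunsaturated fatty acid synthesis, lies on chromosome 19 from 10062765 to 10101746, minus strand. It measured 136, 124 and 90.6 CPM in Hom, 167, 241 and 194 CPM in Het and 229.9, 304 and 217 CPM in WT libraries. The Hom range lay below both others, and Het and WT overlapped. *Fads2* fell in Hom HCs, where its log2 fold change was -1.18 (standard error 0.27, edgeR adjusted p = 0.0573). The adjusted p exceeded 0.1 when any Hom library, WT 55, WT 59 or Het 51 was left out (0.113 to 0.215).

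Its neighbour *Fads1*, the delta-5 desaturase, had 79.9, 95.6 and 42.9 CPM in Hom, 56.4, 57.3 and 70.5 CPM in Het and 76.6, 119 and 104 CPM in WT libraries. The Het values were all under the WT range and the Hom values were not. Its log2 fold change was -0.54 in Hom HCs (standard error 0.36, edgeR adjusted p = 0.562) and -0.80 in Het HCs (standard error 0.36, edgeR adjusted p = 1).

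*Scd2*, a stearoyl-CoA desaturase, was the most abundant of the 31 genes, also per kilobase of exon. It stood at 458, 522 and 466 CPM in Hom, 544, 655 and 613 CPM in Het and 372, 657 and 528 CPM in WT libraries, and WT 44 and WT 55 were the extremes. The log2 fold change was -0.19 (95% interval -0.69 to 0.31). *Scd1*, its paralog, had at most 24.6 CPM, and a level that ranged from 2.55 to 24.6 CPM among the Hom libraries alone.

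*Fasn*, fatty acid synthase, had 295, 265 and 229.8 CPM in Hom, 216, 509 and 320.15 CPM in Het and 209.7, 705 and 297 CPM in WT libraries. WT 55 was above every other library, the Hom values lay inside the WT range, and the log2 fold change was -0.70 (standard error 0.38, edgeR adjusted p = 0.457). Without WT 55 it was -0.054 (edgeR adjusted p = 0.969). *Acaca*, the carboxylase of the first step, and *Elovl6*, an elongase, had log2 fold changes of 0.72 and -0.22 and overlapping ranges. WT 55 also gave the highest sum of the 7 fatty acid genes, 1877 CPM against 949 and 1245 CPM in the other WT and 936 to 1102 CPM in the Hom libraries.

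Per kilobase of exon, so that genes can be ranked, *Scd2* led in each genotype, with a mean of 88.2 CPM per kb in Hom and 94.9 CPM per kb in WT HCs. *Fads2* was at 35.4 CPM per kb in Hom and 76.0 in WT HCs, *Srebf2* at 31.8 in Hom and 68.6 in WT HCs, and *Hsd17b7* at 43.6 in Hom and 68.6 in WT HCs. The order of the last pair in WT HCs is within their spread. *Mvk* was at 34.0 CPM per kb in Hom HCs, between *Fads2* and *Srebf2*, and at 19.7 in WT HCs, below both. The lowest 3 in WT HCs were *Idi1* (0.123 CPM per kb), *Acaca* (1.18) and *Sc5d* (1.39).

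Het HCs gave no call among the 31 genes against WT, and 0% of all genes was called lower. At an unadjusted p under 0.05, 3 of the 31 were lower and 0 higher (all genes, 2.73% lower and 1.79% higher), namely *Stard3*, *Srebf1* and *Fads1*. DESeq2 called 1 lower, *Stard3* (all genes, 0.191%), and limma-voom 0 (all genes, 0.00659%). The CPM ranges did not overlap for 3 genes below WT, *Scap*, *Fads1* and *Stard3* (all genes, 4.11%), and for 2 above, *Mvk* and *Idi1* (all genes, 6.78%). Between Hom and Het HCs edgeR called 0 of the 31, where 0.00659% of all genes was called lower, and *Srebf2* was called lower by both DESeq2 (all genes, 0.566%) and limma-voom (all genes, 0.349%). At an unadjusted p under 0.05, 2 were lower, *Srebf2* and *Fads2*, and 0 higher (all genes, 3.89% lower and 2.9% higher). The 2 comparisons with WT share the WT libraries.

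*Stard3* encodes a protein of late endosomes that transfers cholesterol between membranes. It lies on chromosome 11 from 98358368 to 98381112, plus strand. It had 38.9, 55.8 and 21.7 CPM in Hom, 18.4, 28.5 and 14.3 CPM in Het and 109, 54.7 and 47.1 CPM in WT libraries. The 3 Het values were below all WT values, the Hom values overlapped both, and WT 44 stood above the rest. The log2 fold change was -1.86 in Het HCs (standard error 0.49, edgeR unadjusted p = 0.000972, adjusted p = 1) and -0.93 in Hom HCs (standard error 0.48, edgeR adjusted p = 0.408). DESeq2 called the Het difference (adjusted p = 0.0903). Without WT 44 it was -1.40.

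Of 14 genes listed around *Stard3*, 10 were tested. *Pgap3*, a lipid remodelling gene of GPI anchors that starts 42.1 kb away, had 23.8, 27.2 and 38.5 CPM in Hom, 5.84, 9.07 and 13.9 CPM in Het and 24.8, 40.9 and 51.4 CPM in WT libraries. As for *Stard3*, every Het value was below every WT value. Its log2 fold change in Het HCs was -2.12 (standard error 0.58, edgeR adjusted p = 1), and DESeq2 called it. *Cdk12* was at -0.92 in Het HCs (standard error 0.42). The others with at least 5 CPM in a genotype were *Med1* (0.38), *Erbb2* (-0.21), *Mien1* (-0.04), *Grb7* (-0.33) and *Ormdl3* (-0.07), and *Pnmt*, *Zpbp2* and *Gsdma* stayed under 5 CPM on average. edgeR called 0 of the 10 in Het HCs, with 2 lower at an unadjusted p under 0.05 (all genes, 2.73%). DESeq2 called 1 lower, *Pgap3* (all genes, 0.191%), and limma-voom called 0.

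**Figure D4:**
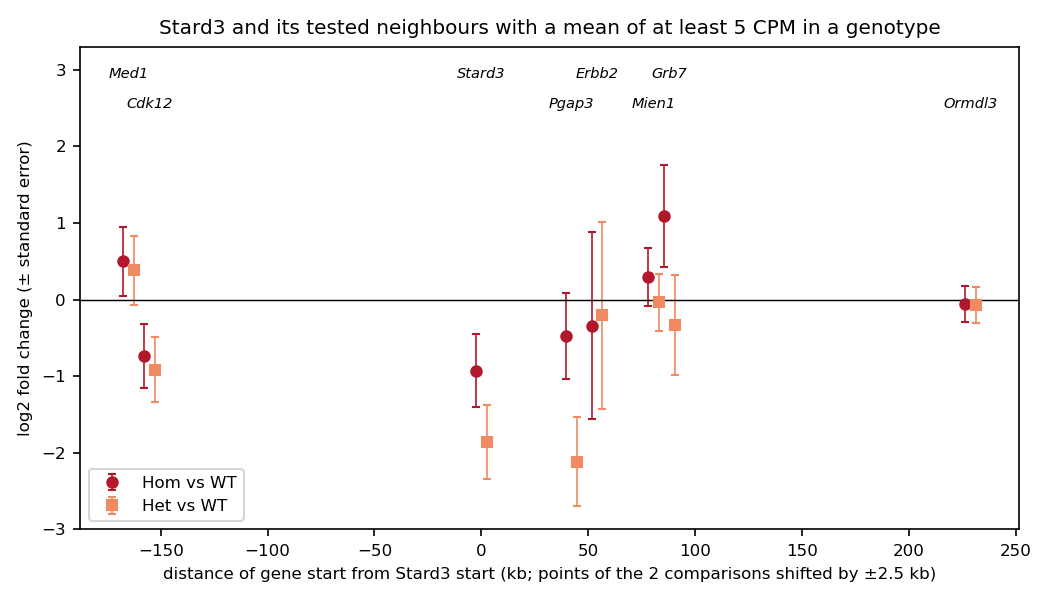
Log2 fold change with standard error (y axis) of *Stard3* and its 7 tested neighbours with a mean of at least 5 CPM, against the distance of their start from that of *Stard3* in kb, for Hom (circles) and Het (squares) against WT. *Stard3* (-1.86) and *Pgap3* (-2.12) have the lowest Het values, and *Ormdl3*, 229 kb away, lies near 0 in both.

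The lists of SREBP processing, of sterol uptake, transport and efflux and of other fatty acid synthesis gave 0 calls in Hom against WT HCs by edgeR. At an unadjusted p under 0.05, 0 of 7 SREBP processing genes differed, 2 of 19 genes of sterol uptake, transport and efflux were lower, and 2 of 22 other fatty acid genes were lower. Over all genes, 8.19% were lower and 4.92% higher at that p. DESeq2 called *Nceh1* and *Elovl2* lower (all genes, 4.02%), and limma-voom called 0. *Nceh1*, a cholesterol ester hydrolase, had 40.6, 11.4 and 47.7 CPM in Hom against 86.5, 90.5 and 76.6 CPM in WT libraries (log2 fold change -1.43, standard error 0.43, edgeR adjusted p = 0.144). *Nceh1* was picked after its values were seen.

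A microRNA pairs through its seed, bases 2 to 8, with matching stretches in 3′ UTRs. The mature miR-96 of RefSeq lies on chromosome 6 of GRCm38.p6 from 30169506 to 30169528, minus strand, and the Dmdo allele holds A7U, counted from the 5′ end of the mature form. The seeds are in capitals, to show which letters the allele changes:
miR-96-5p: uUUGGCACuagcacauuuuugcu
Dmdo form: uUUGGCUCuagcacauuuuugcu

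The reverse complement of the WT seed, GTGCCAA, was found in an annotated 3′ UTR of 8 of the 31 genes, against 12.4% of the 12993 tested genes with a 3′ UTR. These were *Acat2*, *Hmgcs1*, *Mvk*, *Fdft1*, *Sc5d*, *Insig2*, *Scd1* and *Fads1*. That of the Dmdo seed, GAGCCAA, was found in 4, *Fads1*, *Fads2*, *Fasn* and *Stard3*, against 13.3%. The stretches of the genes with the largest differences in each class are shown with the match in capitals:
*Insig2*: atgtcaatGTGCCAAacgtgtta
*Acat2*: gactggcaGTGCCAAcaagtgtg
*Fads2*: gactccatGAGCCAAgagagacc
*Stard3*: aatgatttGAGCCAAttaaaaac

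Of the 8 genes with a WT seed match, 6 had a log2 fold change above 0 in Hom against WT HCs, with a median of 0.42. edgeR called none of the 8 (all tested genes with a WT match, 0.498% higher and 0.56% lower). DESeq2 called *Insig2* higher (all genes, 2.34%). All 4 with a Dmdo match were below 0, with a median of -0.81, and edgeR called *Fads2* lower. Over all tested genes edgeR called 2.19% lower with a Dmdo match and 0.928% with neither match. Over all tested genes with a WT match 53.0% were above 0 (median 0.06), with a Dmdo match 37.6% (median -0.23), and with neither 48.4% (median -0.03). *Srebf2*, *Srebf1* and *Scap* had neither match. A match is a run of letters and not a shown site, and 3′ UTR length was not matched between the classes.

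**Figure D5:**
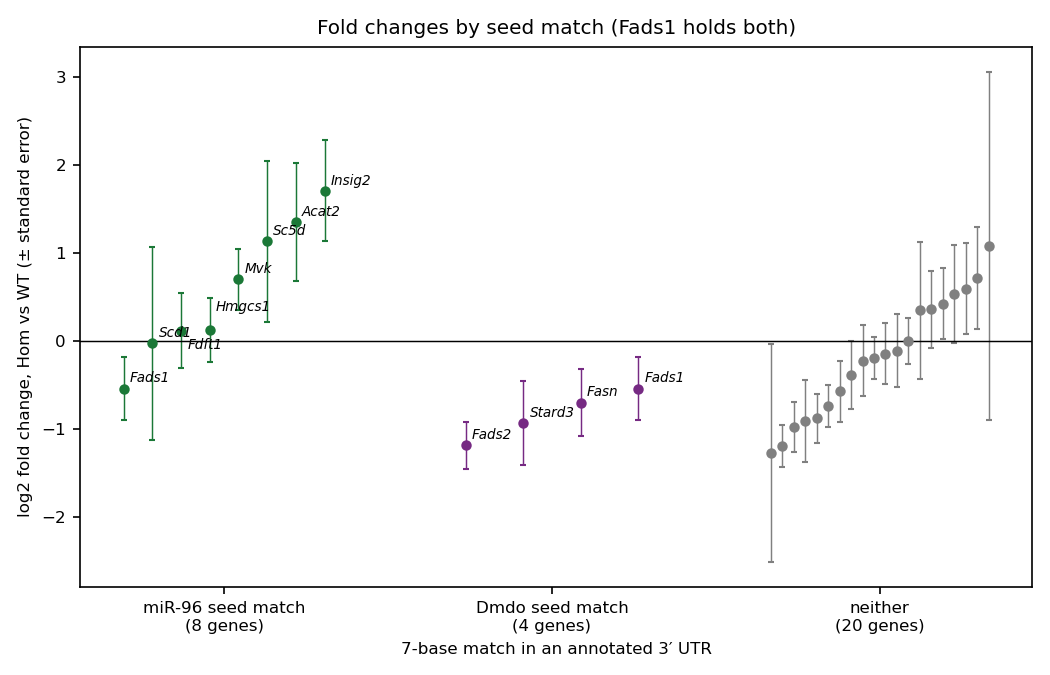
Log2 fold change with standard error (y axis) in Hom against WT HCs for the 8 genes with a miR-96 seed match in a 3′ UTR, the 4 with a Dmdo seed match and the 20 with neither, *Fads1* standing in both of the first classes. The 4 Dmdo points lie between -1.18 and -0.54, and the miR-96 points between -0.54 and 1.71.

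SREBPs bind sterol regulatory elements and act with NF-Y and Sp1. Promoters of RefSeq (GRCm38.p6, 250 bases before to 50 after a gene's start) were matched for 25 of the 31 genes and searched on both strands. TCACNCCAC, one form of the sterol regulatory element, was in 2 of the 25 (8.0%) and in 1.40% of tested genes. CCAAT, the NF-Y box, was in 20 of 25 (80.0%, tested genes 42.0%), and GGGCGG, the Sp1 box, in 21 (84.0%, tested genes 68.6%). The stretches of the genes that hold the element, 137 bases before the start of *Hmgcs1* and 211 before that of *Stard3*, are given with the element in capitals, and that of *Srebf2*, 135 bases before its start, with the NF-Y box as it reads on the gene's strand:
*Hmgcs1*: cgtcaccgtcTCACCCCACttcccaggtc
*Stard3*: cagttcccctTCACTCCACagtgtcaggc
*Srebf2*: tcgcgcgccgATTGGctaatgcaag

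In Hom against WT HCs the log2 fold change was 0.13 for *Hmgcs1* and -0.93 for *Stard3*, neither of which passed.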

How the data were processed

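The authors sorted HCs, made stranded libraries from low-input RNA, aligned reads to GRCm38 with HISAT2 2.0.4 and deposited raw counts per gene from HTSeq for 9 libraries. Library totals were 18175317 to 34873964 reads. Between mice of 1 genotype a chi-square per gene, near 1 if only read sampling varied, ran from 105 to 261. The correlation of log2 CPM in such pairs was 0.80 (WT 44 and WT 59) to 0.91 (Het 48 and Het 51). By the study's methods RNA integrity was lower in 1 WT and 1 Hom sample than in the 7 others, but no source used here says which libraries these are, or the sex and litter of any mouse. Mice are the replicates, 3 per genotype, and edgeR weighs each difference against a spread between mice estimated from all 9 libraries. Rows with a blank gene name (51) hold 0.00279% of counts and name no member.

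CPM was computed with library totals. Standard errors from edgeR are the absolute log2 fold change divided by the square root of its F statistic. edgeR 4.0.16 (quasi-likelihood, robust, TMM, all 9 libraries in 1 fit) tested the 15184 genes that reached 20 reads in 2 or more mice of 1 genotype, with Benjamini-Hochberg adjustment over all of them. DESeq2 1.42.0, limma 3.58.1 (voom with quality weights), other scalings and filters, a *Xist* against *Ddx3y* term and each library left out were alternatives. Exon lengths, overlaps and 3′ UTRs came from GENCODE vM21 on GRCm38. R 4.3.3 and Python 3.11.15 were used.

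Members and lists were chosen with earlier results of these data known. Values in every library are given for genes called in any comparison, the 3 of smallest p per direction in Hom against WT HCs, the 3 most abundant and the *Srebf* and *Insig* genes, and were added for others named. Some genes of the wider lists are not reported here.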

Additional observations from a re-analysis of the deposited data

How the results depend on the processing

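The paper describes the WT mice as littermates of the Hom mice, but no source used here gives the litter of each mouse. Without litters, no paired analysis was possible. The 22 gene differences followed were picked with these data known, and the alternatives reuse most of the same libraries. A kept direction was therefore likely. Through the 18 alternatives with a fit of their own (17 for the allele trend) it was kept in all 390 values. The smallest was -0.0063, for *Scd2* in Hom against WT HCs. Over the 31 genes, the number above 0 in Hom against WT HCs was 14, with 15 in DESeq2 and 12 without Hom 46. Between Hom and WT HCs the number of the 31 genes called was 2 and became 6 with DESeq2, 4 with no low-count filter, 1 at a false discovery rate under 0.05, and 0 both without WT 59 and Hom 46 together and with the *Xist* against *Ddx3y* term. Leaving out 1 library gave 0 to 4. All genes called went to 966 with DESeq2, 338 with limma-voom, 562 with no filter, 61 at a false discovery rate under 0.05, 23 without WT 59 and Hom 46 and 12 with the *Xist* against *Ddx3y* term, beside 175. For Het against WT HCs the count of 0 became 1 with DESeq2, and leaving out 1 library gave 0. For Hom against Het HCs it became 1 with DESeq2 and 1 with limma-voom, and leaving out 1 library gave 0. For the allele trend the count of 3 became 6 with DESeq2, 6 with limma-voom, 2 with library totals, 2 at a false discovery rate under 0.05, and 0 both without WT 59 and Hom 46 together and with the *Xist* against *Ddx3y* term, with 0 to 6 when 1 library was left out. *Srebf2* in Hom against WT HCs was called in 15 of 20 alternatives, with log2 fold changes of -1.31 to -1.09, and not without WT 59 (edgeR adjusted p = 0.104), Hom 43 (0.199), Hom 47 (0.13), WT 59 and Hom 46 together (0.205) or with the *Xist* against *Ddx3y* term (0.315). *Fads2* was called in 11 of 20 (-1.30 to -1.03) and the *Srebf1* trend in 6 of 18 (-0.57 to -0.37). Why these calls were lost was not tested. Fits that left out 1 or 2 libraries held fewer mice, and without WT 44 all genes called in Hom against WT HCs numbered 697. *Idi1* had 77, 1 and 4 reads in Hom, 6, 25 and 3 in WT and 320, 127 and 313 in Het libraries, so its Hom and WT levels rest on few reads. *Ebp*, *Sc5d*, *Scd1* and *Fdps* had means under 20 CPM over the 9 libraries but 22 to 826 reads per library. Their standard errors for Hom against WT HCs ran from 0.78 (*Ebp*) to 1.24 (*Fdps*) on the log2 scale.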
